A study of Mus musculus with 39 samples.

Results

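Solute carriers are the membrane proteins that move amino acids, sugars, nucleosides, vitamins, metals and other small molecules across the plasma membrane and the membranes of mitochondria, lysosomes and the Golgi. They are numbered by family in the Slc symbols, and each family tends to share a kind of substrate. In microglia and other macrophages they supply arginine and glutamine to metabolism, set the pH and the peptide content of endosomes and lysosomes, and control the entry of copper, zinc and iron. The solute carrier genes described here were the count-table symbols that begin with Slc and a number and averaged at least 1 CPM, the usual count scaled to a fixed library size, over all 39 libraries. Of 275 such symbols, 186 passed that minimum, and 9 well-known glucose, lactate, cystine, large neutral amino acid and iron transporters were left out by name. The remaining 177 genes, of 16144 in the table, fall in 43 families and were grouped by main substrate. The level over all libraries chose the genes, so the minimum itself is no result: Slc52a3, Slc15a2 and Slc17a8 lay just inside it at 1.12, 1.15 and 1.32 CPM, and Slc39a2, Slc1a2 and Slc17a9 just outside at 0.882, 0.960 and 0.992 CPM. All 177 passed the filter of the test on low counts, 164 averaged at least 1 CPM in donors and in acceptors, 1 only in donors and 12 only in acceptors. For those 13 a difference between donors and acceptors follows in part from the minimum, so Slc1a3, Slc9b2, Slc15a2, Slc16a7 and Slc19a1 are given below as levels with no test. A few symbols in the set name proteins that carry no solute, such as Slc9a3r1, the scaffold protein NHERF1.

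The series followed primary microglia of newborn C57BL/6 mice, grown for 7 to 10 days in mixed flasks (2 brains each, 10% serum, 1% supernatant of L929 cells) and shaken off the astrocyte layer. Donors, typically plated in wells of 24-well plates, were given Atto-488-labelled alpha-synuclein, a neuronal protein found in Lewy bodies, at 1 µM for 14 h. Acceptors, typically plated in T25 flasks, were stained with a violet cell dye for 15 min, and the populations then shared a culture without direct contact. The 13 groups of 3 libraries are donors and acceptors at 0, 15, 30, 60, 150 and 300 min (marked TW in the labels, which do not define it) and a control at 0 min. The labels leave the control's vessel and density unstated, so alpha-synuclein, density and vessel cannot be told apart in donors. Populations kept alone for the later times are not among the groups, so time in co-culture is also time after handling. The labels do not say whether the 3 libraries of a group came from separate cultures, and p-values measure only the spread between libraries.

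Each donor library held 8753743 to 15910662 reads, each acceptor library 8649169 to 14743934 and each control library 10249066 to 11587525. The 12 microglia markers summed to 2390 to 3840 CPM in donors, against 7640 to 27700 in acceptors and, for the control, 8230 to 8610, and 10 of them were lower and 1 higher in donors than in acceptors. Markers of fibroblasts and vessels summed to 68.8 to 166 CPM in donors, against 22.4 to 74.4 in acceptors and, for the control, 36 to 70. Of 7 tested, 3 were higher and 1 lower in donors than in acceptors. Kdr alone held medians of 114 CPM in donors and 33.6 in acceptors. Pecam1 held medians of 6.82 CPM in donors and 0.367 in acceptors, and Dcn 7.35 and 0. By contrast Col1a1 held 0.233 and 0.235, and Pdgfrb 0.0945 and 0.546. S100a8, a neutrophil and monocyte gene and the only other immune marker tested, was called higher at 14.2 to 93.3 CPM in donors (median 38.2), against 0 to 2.23 in acceptors and, for the control, 0 to 1.24. Astrocyte markers summed to 6.25 to 21.3 CPM in donors, against 12.4 to 38.7 in acceptors and, for the control, 13.8 to 33, with a median of 0 CPM for Gfap and Aqp4 in every population and 6 of 7 tested lower. Neuron markers summed to 1.06 to 12.2 CPM in donors, against 2.22 to 24.7 in acceptors (3 of 6 lower), and oligodendrocyte markers to 149 to 312 CPM in donors, against 180 to 350 in acceptors (5 lower and 1 higher of 10). What part these differences have in the results was not tested, and fewer cells of a type cannot be told apart from less RNA per cell in such libraries. Acceptors at 300 min replicate 2 stood apart, with the fewest reads of all libraries and the highest acceptor level of many solute carriers. Counts of non-overlapping genes are therefore given with and without it.

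Donors differed from acceptors in most solute carrier genes, in both directions. Averaged over the 6 times, 124 of the 177 genes were called (edgeR quasi-likelihood test, Benjamini-Hochberg adjusted p under 0.05 over all 13034 genes tested), 51 higher and 73 lower in donors. That is 70.1% of the solute carriers, beside 62.6% of all genes tested (29.5% higher, 33% lower). These counts, and those by substrate below, include the 12 genes that reached the 1 CPM minimum only in acceptors and the 1 only in donors. For these genes a difference follows in part from the minimum, and counts without them are not given. The median log2 difference was −0.21 over the solute carriers and −0.08 over all genes. At least 2-fold differences were fewer: 22 genes were higher and 31 lower, 12.4% and 17.5%, beside 11.4% and 14.9% of all genes. In 16 genes every donor library lay above every acceptor library, and in 12 every donor library lay below, beside 5.7% and 3.51% of all genes. Without acceptors at 300 min replicate 2 these counts were 23 and 12, beside 7.16% and 4.57%. The split depends on scaling: with library totals in place of TMM factors the median of all genes moved to −0.42, and 26.3% of the called solute carriers were higher in donors, against 41.1% with TMM.

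**Figure D1:**
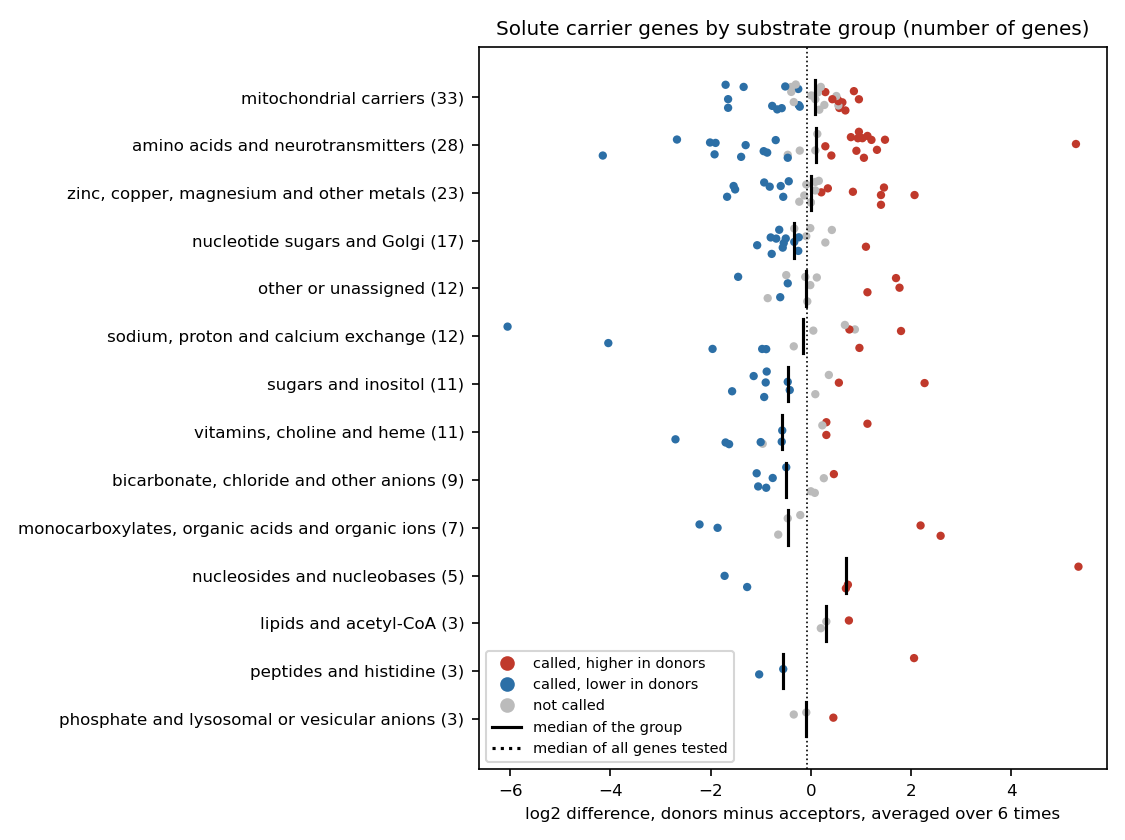
Fitted log2 differences between donors and acceptors, averaged over 6 times, for the 177 solute carrier genes, 1 point per gene, by substrate group with its number of genes, with black bars at group medians and a dotted line at the median of all genes tested (−0.08). Slc28a2 (5.34) and Slc7a2 (5.29) lie farthest to the right. The point farthest to the left is Slc9b2, which reached the 1 CPM minimum only in acceptors, so its position follows in part from that minimum. The nucleotide sugar group holds 11 genes called lower and 1 called higher (64.7% and 5.88%, beside 33% and 29.5% of all genes tested).

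Many of these differences were present before co-culture. Donors at 0 min differed from the control in 59 genes, 30 higher and 29 lower, which is 33.3% of the solute carriers beside 19.7% of all genes tested (10.3% higher, 9.34% lower). At least 2-fold differences were 20 higher and 22 lower, beside 6.88% and 6.71% of all genes. All 59 were also called, in the same direction, between donors and acceptors, a comparison that shares the donor libraries at 0 min. Called in both were 30 of 177 solute carriers higher (16.9%) and 29 lower (16.4%), beside 10.2% of all genes higher and 9.24% lower. This carry-over was not particular to solute carriers. Of all genes called against the control, 1330 of 1348 higher and 1204 of 1217 lower were called in both. With library totals in place of TMM factors, 15 solute carriers were higher and 55 lower than in the control. Of the called solute carriers 21.4% were then higher, against 50.8% with TMM, and the median of all genes moved from −0.03 to −0.39. Acceptors at 0 min differed from the control in 0 solute carrier genes (edgeR), 0 at an unadjusted p under 0.05, beside 2.02% of all genes at that unadjusted threshold. DESeq2 also called 0.

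With edgeR no solute carrier gene passed the threshold for time in co-culture, and DESeq2 called 1, Slc4a11 in acceptors. The share of all genes that DESeq2 called for time is not given here, so that call has no background beside it. In edgeR's F tests over the 6 times 0 of 177 were called in donors and 0 in acceptors, beside 0% and 0.0153% of all genes, and 0 differed between the time courses, beside 0.0153%. At an unadjusted p under 0.05 the counts were 2, 5 and 3 of 177, beside 1.93%, 3.54% and 1.5% of all genes. Against 0 min no later time called a solute carrier in either population (edgeR), beside 0.00767%, 0.0153% and 0.00767% of all genes in acceptors at 60, 150 and 300 min and 0% at the others. At an unadjusted p under 0.05, 21 of 177 (11.9%) differed in acceptors at 300 min, beside 8.02% of all genes, and 0 to 6 in the other later groups. Donors differed from acceptors in 58, 54, 58, 56, 58 and 56 genes at 0, 15, 30, 60, 150 and 300 min, beside 22.8%, 21.9%, 22.6%, 22.2%, 22.1% and 23% of all genes. Of the solute carriers, 17 were higher and 11 lower at all 6 times, beside 6.69% and 4.5% of all genes, while 87 were called at 0 of the 6 times, beside 60.6%, and 0 were called in opposite directions at different times, beside 0.00767%. The TMM-scaled summed level of the 177 genes in donors was 10400 ± 408, 10500 ± 86.6, 10300 ± 283, 10800 ± 847, 10300 ± 617 and 10300 ± 765 CPM from 0 to 300 min (SD, n = 3 each). In acceptors the sums were 7420 ± 261, 7420 ± 106, 7450 ± 320, 7300 ± 229, 7400 ± 197 and 8370 ± 1760 CPM, the last with the library that stood apart, and in the control 7550 ± 380 CPM.

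The gene nearest to a change over time was Slc4a11, a borate and proton transporter family member related to the bicarbonate carriers, singled out after its values were seen. In acceptors Slc4a11 averaged 1.39 ± 0.236, 1.34 ± 0.682, 2.23 ± 1.04, 1.58 ± 1.07, 3.91 ± 0.185 and 7.94 ± 2.02 CPM from 0 to 300 min (SD, n = 3 each). Its 3 acceptor libraries at 300 min held 5.80, 9.83 and 8.19 CPM, against 1.15, 1.62 and 1.40 CPM at 0 min, and the groups did not overlap. The 9.83 CPM came from the library that stood apart and raised the mean at 300 min, while 5.80 and 8.19 CPM also lay above every value at 0 min. In donors Slc4a11 averaged 1.99 ± 2.06 CPM at 300 min, against 1.31 ± 0.563 CPM at 0 min. The change in acceptors did not pass edgeR's F test (adjusted p = 0.504) but passed DESeq2's likelihood ratio test (adjusted p = 0.0239). Among donors, Slc25a25, a mitochondrial ATP-magnesium and phosphate carrier also named after its values were seen, had the smallest unadjusted p (edgeR, 0.00725, adjusted p = 1).

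**Figure D2:**
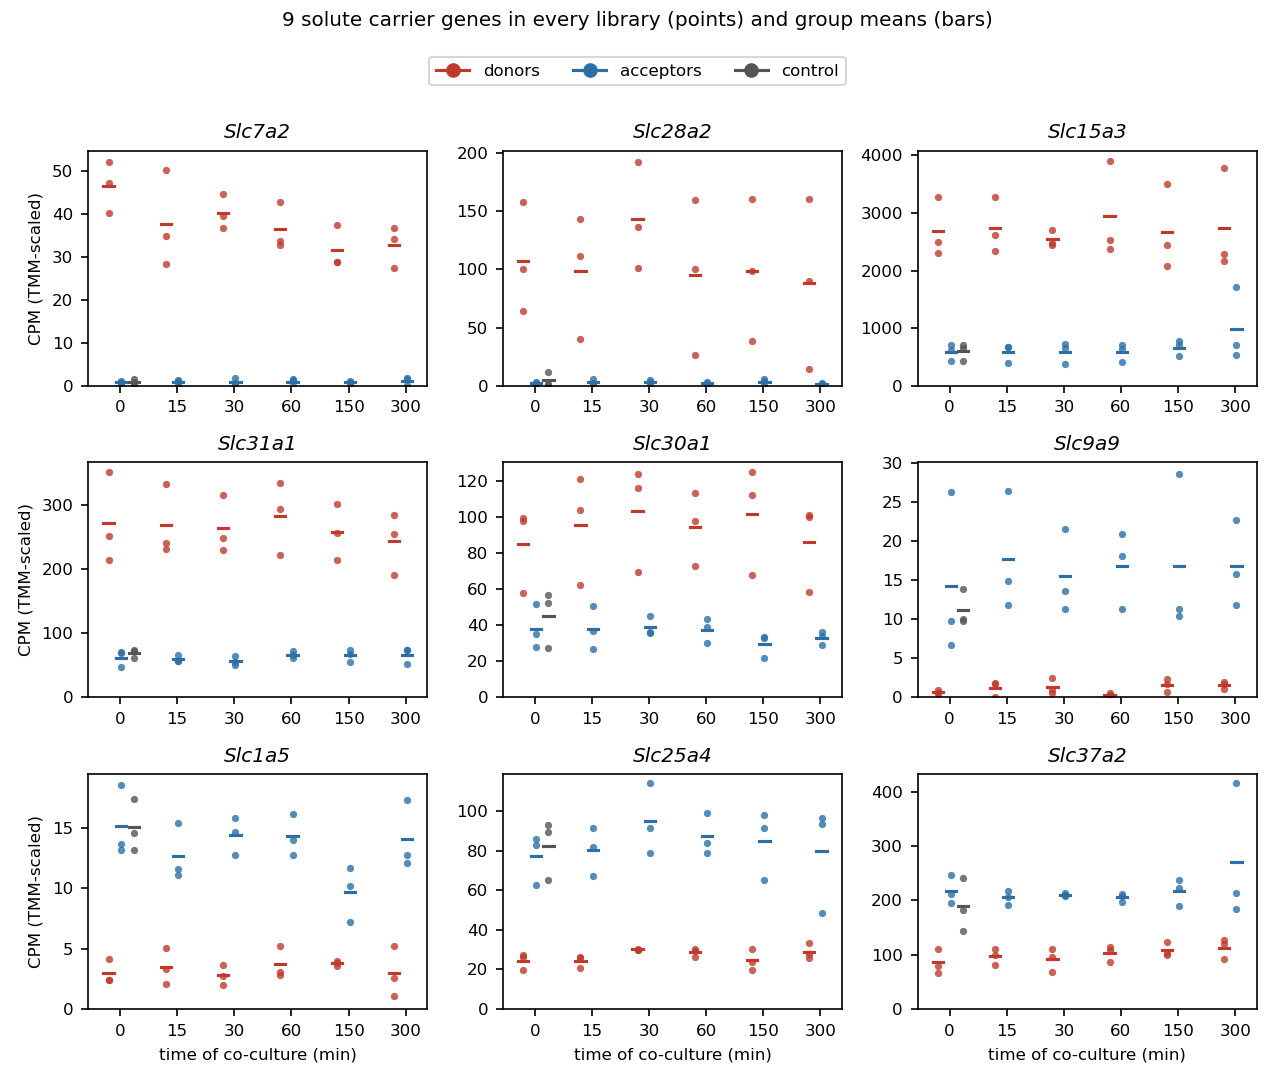
Levels of 9 solute carrier genes in every library (points, TMM-scaled CPM) and group means (bars) by time of co-culture, for donors, acceptors and the control at 0 min. In all 9 the donor libraries lie apart from the acceptor libraries at every time, above them in the first 5 genes and below them in the last 4.

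Among 28 carriers of amino acids and neurotransmitters, 13 (46.4%) were higher and 11 (39.3%) lower in donors than in acceptors, beside 29.5% and 33% of all genes tested, but with library totals 11 were higher and 14 lower. Their summed level also turned, with TMM medians of 2030 CPM in donors and 1590 in acceptors, and medians of 1770 in donors and 1810 in acceptors with library totals. Slc7a2 encodes CAT2, the cationic amino acid transporter that brings arginine into activated macrophages. It held 27.4 to 52.2 CPM in donors (median 36.7), against 0 to 1.76 in acceptors (median 1.03) and 0.153, 0.992 and 1.71 in the control, so the populations lay far apart. The log2 difference was 5.29 ± 0.27 (SE) from acceptors (edgeR adjusted p = 1.55e-17) and 5.6 ± 0.68 from the control at 0 min (edgeR adjusted p = 2.05e-07). With 1 library left out the latter ran from 5.09 to 6.38, the highest without control replicate 2. Over time donors averaged 46.6 ± 6.02, 37.8 ± 11.3, 40.4 ± 4.06, 36.5 ± 5.51, 31.7 ± 4.98 and 32.8 ± 4.87 CPM of Slc7a2 (SD, n = 3 each), values that did not differ past the test for time (unadjusted p = 0.903, adjusted p = 1).

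Carriers of neutral amino acids moved in both directions. Slc38a1 and Slc38a2, sodium-coupled carriers of glutamine, alanine and other small neutral amino acids, rose in donors. Slc38a1 held 33.2 to 136 CPM in donors (median 93), against 9.56 to 52.4 in acceptors (median 34.6) and 31.7 to 36.2 in the control, a log2 difference of 1.32 ± 0.16 from acceptors. Slc38a2 held 196 to 600 CPM in donors (median 383), against 130 to 283 in acceptors (median 181), a log2 difference of 1.03 ± 0.11. Of the same family Slc38a6 and Slc38a9 were not called (0.13 and 0.09), both named after their values were seen. Slc1a5 (ASCT2, the main plasma membrane glutamine exchanger) and Slc1a4 (ASCT1, an exchanger of serine and alanine) fell. Slc1a5 held 1.11 to 5.21 CPM in donors (median 3.23), against 7.19 to 18.6 in acceptors (median 13) and 13.2, 14.6 and 17.4 in the control. Slc1a4 held 1.39 to 6.68 CPM in donors (median 3.84), against 8.33 to 29 in acceptors (median 13.5). Donor and acceptor libraries did not overlap in either gene, with log2 differences of −2.01 ± 0.15 and −1.92 ± 0.16.

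Slc1a3 (GLAST), a glutamate transporter abundant in astrocytes, held 0 to 5.30 CPM in donors (median 0.323), against 0.954 to 8.55 in acceptors (median 3.86). Astrocyte markers fell in 6 of 7 cases tested, and the part of such cells in the Slc1a3 level was not tested. The creatine transporter Slc6a8 rose, at 55.6 to 97.2 CPM in donors (median 81.8), against 23.8 to 44.1 in acceptors (median 35.7), without overlap. Slc18a1 (VMAT1), a vesicular monoamine transporter, held 7.23 to 21.5 CPM in donors (median 12.7), against 2.49 to 6.61 in acceptors (median 4.79), also without overlap. The highest member of the group, the taurine transporter Slc6a6, held 192 to 788 CPM in donors, against 242 to 1170 in acceptors, and was not called (log2 −0.22 ± 0.19).

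Carriers of the osmolytes betaine and myo-inositol fell. Slc6a12 (BGT1) takes up betaine and GABA, and Slc5a3 (SMIT1) takes up myo-inositol. Slc6a12 held 8.02 to 18.5 CPM in donors (median 11.7), against 11.7 to 56.2 in acceptors (median 31.1) and 19.6, 52.6 and 99.5 in the control. Slc5a3 held 3.89 to 16.5 CPM in donors (median 10.1), against 5.11 to 61.3 in acceptors (median 28.1) and 28.8, 53.2 and 109 in the control. The control spread widely and in the same order of libraries in both genes, while donors at 0 min were close together at 10.6 to 12 CPM for Slc6a12 and 8.20 to 14.9 CPM for Slc5a3. From the control the log2 differences were −2.33 ± 0.51 for Slc6a12 and −2.37 ± 0.55 for Slc5a3 (edgeR adjusted p = 0.00109 and 0.00193), and without control replicate 1, the highest, they were −1.67 and −1.74.

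Of 3 carriers of peptides and histidine 1 was higher and 2 lower in donors (33.3% and 66.7%, beside 29.5% and 33% of all genes tested). Slc15a2, among the lower calls, reached the 1 CPM minimum only in acceptors, so its call follows in part from that minimum. The higher gene was the most abundant solute carrier of all. Slc15a3 (PHT2) exports histidine and small peptides from lysosomes and endosomes. It held 2080 to 3900 CPM in donors (median 2480), against 385 to 1720 in acceptors (median 665) and 436, 654 and 709 in the control. The acceptor maximum of 1720 CPM came from the library that stood apart, and the other 17 acceptor libraries reached 770 CPM. The log2 difference was 2.06 ± 0.14 from acceptors (edgeR adjusted p = 2.24e-14) and 2.17 ± 0.35 from the control at 0 min. The summed level of all solute carriers was 9740 to 11700 CPM in donors (median 10400), against 7100 to 10400 in acceptors (median 7430), and with library totals 8620 to 9800 in donors (median 9130), against 7920 to 9180 in acceptors (median 8380). The last 500 bases of Slc15a3 (chromosome 19, 10839727 to 10859362, plus strand, GRCm38) overlap an exon of Tmem132a on the opposite strand. Tmem132a held 11.1 to 32.2 CPM in donors, against 1.97 to 13.5 in acceptors, levels far below those of Slc15a3. It was also called higher in donors (log2 1.14, edgeR adjusted p = 2.84e-08). No source used here says whether counting used the strand, and the part of such reads in the Slc15a3 counts was not tested. Slc15a4 (PHT1), the other lysosomal carrier of histidine and peptides, also named after its values were seen, fell, at 39.9 to 75.7 CPM in donors (median 60.7), against 58.5 to 112 in acceptors (median 87.5), a log2 difference of −0.55 ± 0.08. Slc15a2 (PEPT2), a plasma membrane peptide transporter, held 0 to 1.61 CPM in donors, against 0.451 to 3.96 in acceptors, and the ranges overlapped.

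**Figure D3:**
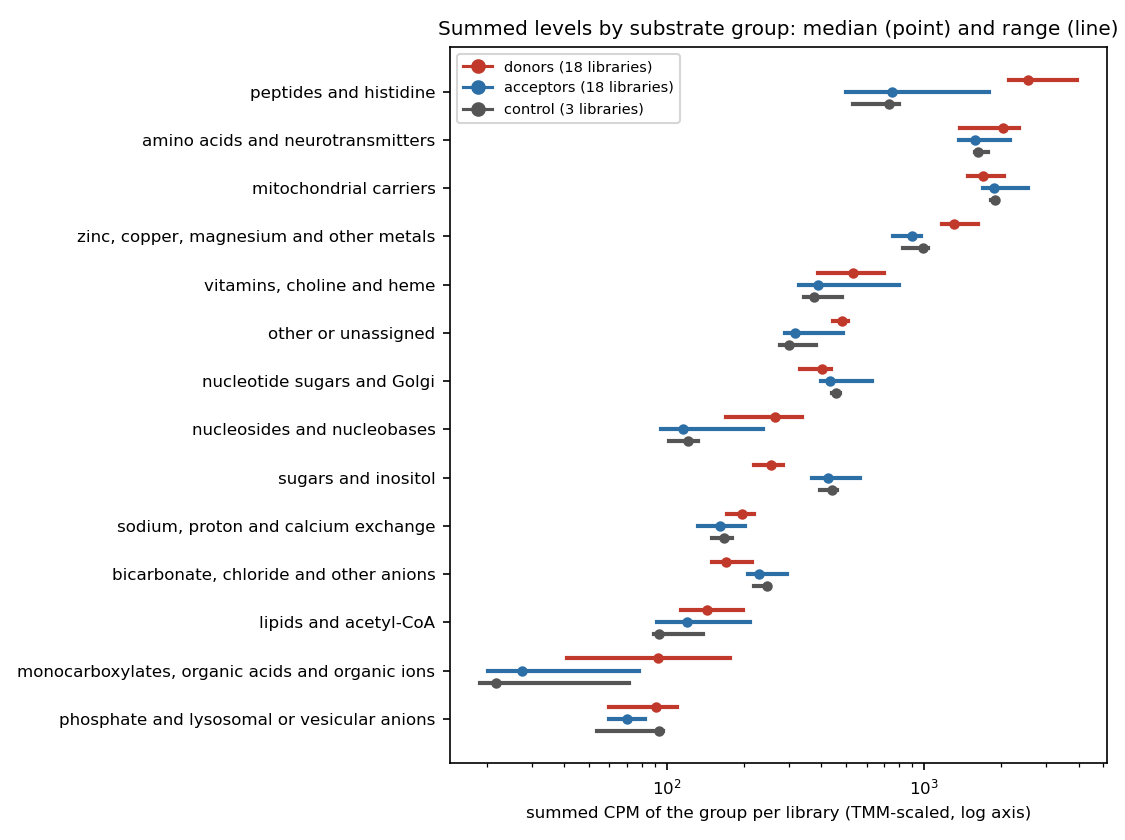
Summed CPM of each substrate group per library on a log axis, with the median (point) and the range (line) of 18 donor, 18 acceptor and 3 control libraries. The peptide and histidine group stands at a median of 2540 CPM in donors, against 756 CPM in acceptors and 730 CPM in the control, and the sugar group at 254 CPM in donors, against 424 and 439 CPM.

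All 5 carriers of nucleosides and nucleobases were called, 3 higher and 2 lower in donors (60% and 40%, beside 29.5% and 33% of all genes tested). Slc28a2 (CNT2), the sodium-driven carrier that concentrates purine nucleosides in cells, differed from acceptors by about as much as Slc7a2. It held 14.5 to 192 CPM in donors (median 100), against 0.131 to 5.69 in acceptors (median 2.61) and 1.09, 1.44 and 11.6 in the control, again without overlap. The log2 difference was 5.34 ± 0.40 from acceptors (edgeR adjusted p = 2.08e-13) and 4.49 ± 0.93 from the control (edgeR adjusted p = 0.000626). With 1 library left out the latter ran from 4.02 to 6.4, the highest without control replicate 3, the library at 11.6 CPM. The equilibrative carriers of the plasma membrane fell: Slc29a1 (ENT1) held 8.90 to 23.7 CPM in donors (median 12.9), against 23.3 to 47.1 in acceptors (median 31.7). Slc29a2 (ENT2) held 0.164 to 3.44 CPM in donors (median 0.989), against 1.69 to 7.34 in acceptors (median 3.38). Slc29a3 (ENT3), the lysosomal member, rose by contrast, at 89.4 to 146 CPM in donors (median 115), against 45.3 to 197 in acceptors (median 64.3). Without the library that stood apart, acceptors reached 91.5 CPM of Slc29a3. Slc43a3, a purine nucleobase carrier, held 11.3 to 33.2 CPM in donors, against 5.38 to 27.7 in acceptors (log2 0.74 ± 0.21), a call that was lost with library totals (0.40, edgeR adjusted p = 0.103).

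Both copper importers rose. Of 23 carriers of metals, 7 were higher and 8 lower in donors (30.4% and 34.8%), near the 29.5% and 33% of all genes tested, or 5 and 12 with library totals. Slc31a1 (CTR1), the high-affinity copper importer, held 191 to 352 CPM in donors (median 255), against 47.2 to 74.4 in acceptors (median 65.3) and 61.4, 73.3 and 74.3 in the control. Its relative Slc31a2 (CTR2), which acts on endosomal copper, held 299 to 590 CPM in donors (median 383), against 73.2 to 213 in acceptors (median 150) and 134, 172 and 213 in the control. Neither gene overlapped between donors and acceptors. The log2 differences from acceptors were 2.07 ± 0.09 for Slc31a1 (edgeR adjusted p = 1.71e-19) and 1.46 ± 0.12 for Slc31a2, and those from the control at 0 min 1.97 ± 0.22 and 1.35 ± 0.29. Slc31a1 and Slc31a2 lie on the plus strand of chromosome 4 (GRCm38), at 62360727 to 62391769 and 62262562 to 62298411.

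Slc30a1 (ZnT1), the exporter that removes zinc across the plasma membrane, rose too, at 57.8 to 125 CPM in donors (median 99.8), against 21.7 to 51.5 in acceptors (median 35.4), without overlap. The log2 difference was 1.40 ± 0.13 from acceptors (edgeR adjusted p = 3.02e-11). From the control at 0 min it was 0.91 ± 0.31, a call lost without donors replicate 1 (0.78) or 2 (0.80) or control replicate 1 (1.02) or 2 (0.64). In the Slc39 family of metal importers Slc39a14 rose by 0.84 on the log2 scale, while Slc39a3, Slc39a4, Slc39a10, Slc39a11 and Slc39a8 fell, the first 4 named after their values were seen. Slc39a11 (ZIP11) and Slc39a8 (ZIP8, which also carries manganese) differed most. Slc39a11 held 9.54 to 23 CPM in donors (median 13.7), against 29.3 to 77.6 in acceptors (median 38.1), and Slc39a8 held 0.222 to 2.47 CPM in donors (median 1.72), against 0.917 to 7.14 in acceptors (median 4.63). Metallothioneins, small proteins that bind zinc and copper, and the zinc sensor Mtf1 formed a separate list. Of these, 3 of 3 tested were higher in donors than in acceptors, beside 29.5% of all genes tested. Mt2 held 46.6 to 157 CPM in donors (median 97), against 14.7 to 76 in acceptors (median 30.3), a log2 difference of 1.20 ± 0.24. Mt1 held 182 to 459 CPM in donors (median 264), against 128 to 302 in acceptors (median 177), a log2 difference of 0.54 ± 0.15. From the control at 0 min none of the 3 was called (edgeR), with adjusted p = 0.270 for Mt1, 0.132 for Mt2 and 0.183 for Mtf1, and 1 of the 3 had an unadjusted p under 0.05.

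MTF1 binds metal response elements, short motifs found upstream of metallothionein genes and of Slc30a1. The 250 bases before the annotated starts of Slc30a1 and Mt1 are shown because these genes rose in donors and share that motif. The sequences are RefSeq's (GRCm38.p6), 5′ to 3′ on the plus strand, and capitals mark matches to TGCACNC or TGCGCNC on either strand.
Slc30a1, chr1:191906531-191906780: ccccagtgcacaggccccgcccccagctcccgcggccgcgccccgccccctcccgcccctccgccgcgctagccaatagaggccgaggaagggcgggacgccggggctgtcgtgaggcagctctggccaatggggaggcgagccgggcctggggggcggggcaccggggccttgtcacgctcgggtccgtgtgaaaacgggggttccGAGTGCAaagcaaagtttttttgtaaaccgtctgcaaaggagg
Mt1, chr8:94178839-94179088: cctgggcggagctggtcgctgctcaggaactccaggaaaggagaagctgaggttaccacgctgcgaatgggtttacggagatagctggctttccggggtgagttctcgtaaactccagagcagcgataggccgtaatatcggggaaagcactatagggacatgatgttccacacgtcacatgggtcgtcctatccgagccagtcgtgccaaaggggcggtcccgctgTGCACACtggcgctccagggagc
Slc30a1 holds 1 match, on the minus strand, that begins 43 bases before the start, and Mt1 holds 1 on the plus strand that begins 23 bases before the start. The motif is short and common: 21.4% of all 32851 promoter windows of this length hold at least 1 match, and 28.2% of 188 windows of 135 solute carrier genes do.

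In the exchange of sodium, protons and calcium, 3 of 12 genes were higher and 5 lower in donors (25% and 41.7%, beside 29.5% and 33% of all genes tested). The sodium-proton exchangers Slc9a9 and Slc9a7 were among the lower ones, while Slc9a8 was among the higher ones. Slc9a9 (NHE9, of endosomes) held 0 to 2.47 CPM in donors (median 0.966), against 6.68 to 28.7 in acceptors (median 14.3) and 9.74, 10 and 13.9 in the control. The log2 difference was −4.04 ± 0.28 from acceptors (edgeR adjusted p = 2.21e-14) and −3.99 ± 0.69 from the control (edgeR adjusted p = 6.46e-05). Slc9a7 (NHE7, of the trans-Golgi network) held 2.22 to 5.10 CPM in donors (median 3.44), against 8.10 to 21.2 in acceptors (median 14.8). Slc9b2 (NHA2), named after its values were seen since its mean of 2.10 CPM is low, had no read in most donor libraries and at most 0.403 CPM, against 1.13 to 6.17 CPM in acceptors and 4.19, 6.49 and 9.81 in the control. Donors and acceptors did not overlap in Slc9a9 or Slc9a7.

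Slc9a8 (NHE8), another sodium-proton exchanger, rose. It held 37.5 to 58.2 CPM in donors (median 45.6), against 17.7 to 58.2 in acceptors (median 22). Without the library that stood apart the Slc9a8 maximum in acceptors was 26.6 CPM, so donors and acceptors no longer overlapped. The calcium exchangers moved apart. Slc8b1 (NCLX), which lets calcium out of mitochondria, held 28.6 to 79.9 CPM in donors (median 62.6), against 9.69 to 26.7 in acceptors (median 17.7), a log2 difference of 1.80 ± 0.13. Slc8a1 (NCX1), which moves calcium across the plasma membrane, held 8.43 to 16.8 CPM in donors (median 11.7), against 18.3 to 31.8 in acceptors (median 23.5), a log2 difference of −0.97 ± 0.09. Neither overlapped.

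Mitochondrial carriers, the Slc25 family, held 10 higher and 11 lower of 33 genes (30.3% and 33.3%), near the 29.5% and 33% of all genes tested, or 5 and 15 with library totals. Slc25a4 (ANT1), an ADP/ATP carrier, held 19.5 to 33.4 CPM in donors (median 26.8), against 48.7 to 114 in acceptors (median 85) and 65.4, 89.5 and 92.8 in the control, without overlap between donors and acceptors. The log2 difference was −1.65 ± 0.09 from acceptors and −1.76 ± 0.23 from the control (edgeR adjusted p = 1.74e-16 and 9.02e-07). Slc25a15, the ornithine carrier of the urea cycle, held 0.454 to 3.26 CPM in donors, against 2.13 to 15.1 in acceptors (log2 −1.65 ± 0.22), and Slc25a13 (citrin), an aspartate and glutamate carrier, held 0.552 to 6.58 CPM in donors, against 4.12 to 12.3 in acceptors (log2 −1.34 ± 0.18). Higher were Slc25a44, a carrier of branched-chain amino acids, at 85.9 to 128 CPM in donors, against 40 to 71.5 in acceptors, and Slc25a37 (mitoferrin 1), an iron importer, at 52.4 to 87.5 CPM in donors, against 21.3 to 68.4 in acceptors. The phosphate carrier Slc25a3, the most abundant of the family, was lower by little, at 403 to 716 CPM in donors, against 528 to 765 in acceptors (log2 −0.22 ± 0.07). Within library runs 1 and 2 that call was lost (−0.22 and −0.05).

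Sugar and nucleotide sugar carriers leaned lower in donors. Of 11 carriers of sugars and inositol 2 were higher and 7 lower (18.2% and 63.6%, beside 29.5% and 33% of all genes tested). Their median log2 difference was −0.46, against −0.08 over all genes. Slc37a2, a sugar phosphate exchanger of the endoplasmic reticulum, held 67.1 to 127 CPM in donors (median 102), against 185 to 415 in acceptors (median 210) and 144, 182 and 241 in the control. Its difference was −1.14 ± 0.10 from acceptors and −1.14 ± 0.24 from the control, and donors did not overlap with acceptors. Slc2a9, a urate carrier, held 6.43 to 18.5 CPM in donors, against 12.8 to 24.7 in acceptors (log2 −0.93 ± 0.12). Slc45a3, which carries sugars, was the main exception, at 6.12 to 18.1 CPM in donors, against 0.131 to 4.35 in acceptors (log2 2.27 ± 0.22). Of 17 carriers of nucleotide sugars and related Golgi proteins 1 was higher and 11 lower (5.88% and 64.7%), with a median of −0.33. Among them were Slc35a1, the CMP-sialic acid carrier, at 2.55 to 6.34 CPM in donors, against 3.19 to 12.2 in acceptors (log2 −0.80 ± 0.15), and Slc35d1, a carrier of UDP-glucuronic acid, at 1.97 to 7.03 CPM in donors, against 3.86 to 13.4 in acceptors (log2 −1.07 ± 0.16). The 1 higher gene, Slc35e4, whose substrate is not settled, held 40.9 to 87.4 CPM in donors, against 14.9 to 44.4 in acceptors (log2 1.10 ± 0.12).

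Vitamin carriers differed by vitamin. Of 11 carriers of vitamins, choline and heme, 3 were higher and 6 lower in donors (27.3% and 54.5%, beside 29.5% and 33% of all genes tested). Slc23a2 (SVCT2), the vitamin C carrier, held 89.8 to 137 CPM in donors (median 112), against 31.7 to 70.3 in acceptors (median 52), a log2 difference of 1.13 ± 0.10, without overlap. Of the plasma membrane folate carriers, Slc19a1, the reduced folate carrier, held 0 to 2.63 CPM in donors (median 0.781), against 3.15 to 11.1 in acceptors (median 5.30). Slc46a1, the proton-coupled folate carrier, fell, at 4.32 to 13.1 CPM in donors (median 8.72), against 11.3 to 29.5 in acceptors (median 17.3), a log2 difference of −1 ± 0.14. The lysosomal heme carrier Slc48a1 held 206 to 452 CPM in donors, against 177 to 516 in acceptors, and its call (log2 0.31 ± 0.12, edgeR adjusted p = 0.0300) turned to −0.03 with library totals and to −0.06 within library run 2. Slc49a4, a lysosomal membrane protein counted among the unassigned genes, held 27.1 to 46.9 CPM in donors (median 38.2), against 7.92 to 17.2 in acceptors (median 11.8), a log2 difference of 1.70 ± 0.10.

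Among 9 carriers of bicarbonate, chloride and other anions, 1 was higher and 5 lower (11.1% and 55.6%, beside 29.5% and 33% of all genes tested). Slc4a7 (NBCn1), which imports sodium and bicarbonate, held 15.2 to 32.2 CPM in donors (median 21), against 32.9 to 59.6 in acceptors (median 45.7), without overlap. The potassium-chloride cotransporters Slc12a4 and Slc12a7, which let cells lose volume, fell by 1.05 ± 0.14 and 0.89 ± 0.15 on the log2 scale. Slc26a2, a sulfate carrier, was called higher at 10.4 to 25.4 CPM in donors, against 7.37 to 17.2 in acceptors (log2 0.46 ± 0.12), but turned to −0.06 within library run 1 and was not called with library totals (0.12, edgeR adjusted p = 0.354).

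Among 7 carriers of monocarboxylates and other organic ions, 2 were higher and 2 lower (28.6% each, beside 29.5% and 33% of all genes tested). Of these, Slc22a4 reached the 1 CPM minimum only in donors and Slc16a7 only in acceptors. Slc16a13 (MCT13) held 0.166 to 2.35 CPM in donors (median 1.28), against 3.26 to 7.47 in acceptors (median 5.22) and 4.98, 5.05 and 9.16 in the control. The log2 differences were −2.22 ± 0.23 from acceptors and −3.34 ± 0.60 from the control. With 1 library left out the latter ran from −4.4, without donors at 0 min replicate 2, to −2.9. Slc16a7 (MCT2) held 0.278 to 2.16 CPM in donors, against 1.13 to 6.40 in acceptors. Slc13a3 (NaDC3) takes up dicarboxylates such as succinate. It held 26.8 to 151 CPM in donors (median 76.8), against 3.03 to 39.3 in acceptors (median 5.47) and 3.06, 3.34 and 38.6 in the control. The library numbers in the sample titles fall in 3 consecutive runs, each with 1 library of every group, and the level of Slc13a3 went with the run. In run 3 it held 128 to 151 CPM in donors, against 26.9 to 39.3 in acceptors and 38.6 in the control. In run 1 it held 71.6 to 83.2 CPM in donors, against 3.03 to 6.65 in acceptors and 3.06 in the control. In run 2 it held 26.8 to 48.4 CPM in donors, against 3.25 to 6.87 in acceptors and 3.34 in the control. Within each run donors lay above acceptors and above the control without overlap. From acceptors the log2 difference was 2.59 ± 0.44 (edgeR adjusted p = 5.96e-06). From the control at 0 min it was 2.55 ± 1.08 (edgeR adjusted p = 0.0960), but 3.2 with the run as a block (edgeR adjusted p = 3.3e-06). With 1 library left out the difference from the control ran from 1.96 to 4.78. The highest, called, was without control replicate 2, the library of run 3.

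**Figure D4:**
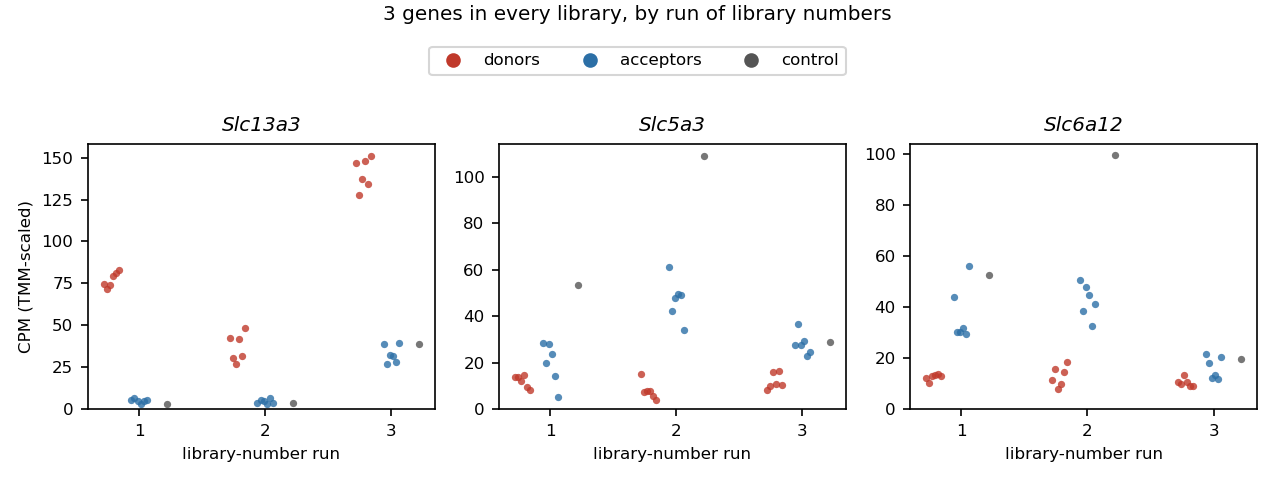
Levels of Slc13a3, Slc5a3 and Slc6a12 (TMM-scaled CPM) in every library, by run of library numbers in the sample titles, for donors, acceptors and control. Slc13a3 stands highest in run 3 in all 3 populations (128 to 151 CPM in donors, 26.9 to 39.3 CPM in acceptors, 38.6 CPM in the control), and in each run its donor points lie above the others, while for Slc5a3 and Slc6a12 the donor median lies below the acceptor median and the control in each run.

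Groups of 3 genes each carried lipids and phosphate. Slc27a1 (FATP1), a fatty acid carrier, held 55.4 to 156 CPM in donors, against 48.5 to 100 in acceptors, and was not called (log2 0.31 ± 0.14, edgeR adjusted p = 0.0541). It was called with the run as a block (0.28, edgeR adjusted p = 0.00286) and stood at −0.04 with library totals. Slc20a1 (PiT1), a phosphate importer, held 54.4 to 105 CPM in donors, against 39.9 to 76.7 in acceptors (log2 0.45 ± 0.10), a call lost with library totals (0.11, edgeR adjusted p = 0.263). Slc9a3r1, the scaffold protein, had the smallest p of the set, at 114 to 151 CPM in donors (median 128), against 32.7 to 52.7 in acceptors (median 36.8) and 32.8, 36.6 and 37.5 in the control (log2 1.77 ± 0.07 and 1.79 ± 0.16, edgeR adjusted p = 3.78e-21 and 9.15e-10).

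**Figure D5:**
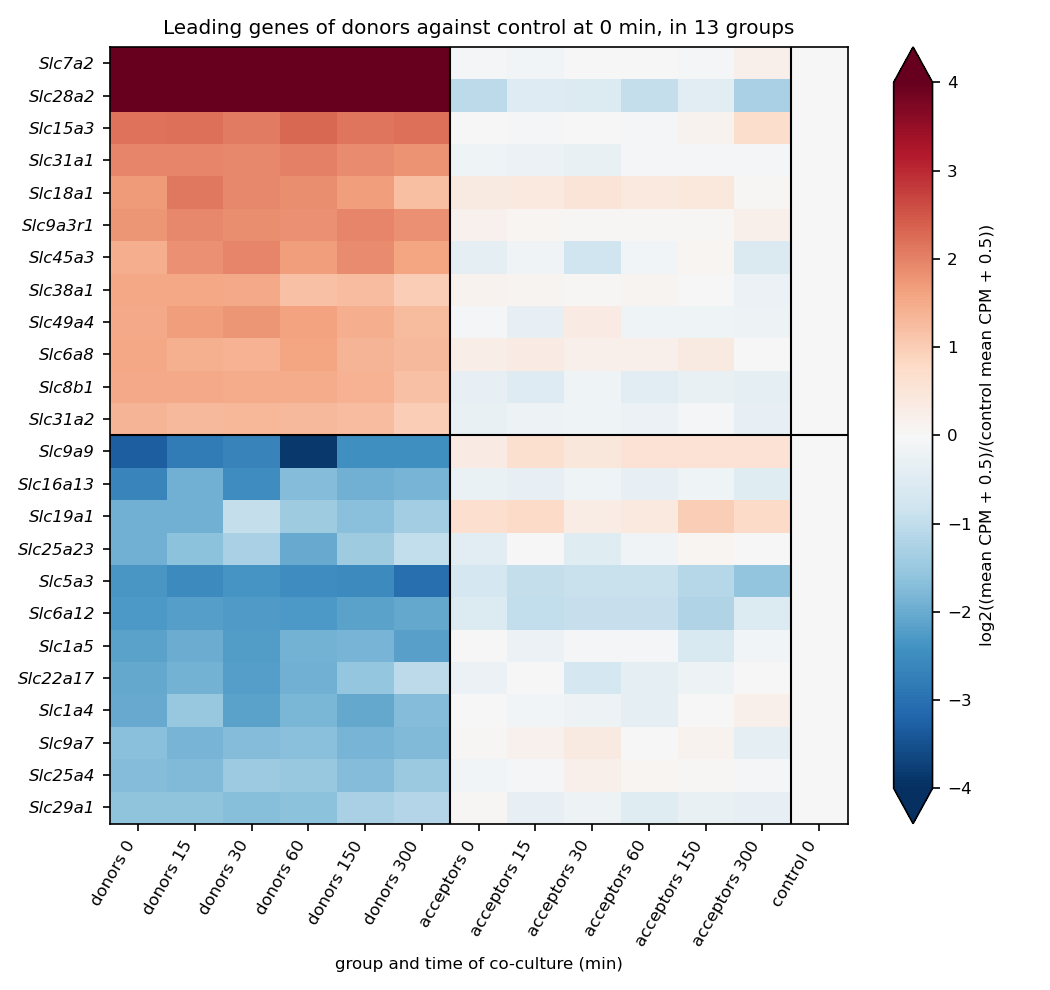
Mean levels of the 12 genes with the largest rises (top) and the 12 with the largest falls (bottom) among those called between donors and control at 0 min with a mean of at least 3 CPM, which leaves out Slc9b2, as log2 of the ratio to the control mean after adding 0.5 CPM, in 13 groups. Red marks means above the control and blue means below, and donors keep 1 sign at all 6 times in each gene, while acceptors are pale in most of the genes shown.

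Transporters without an Slc symbol, listed as further members of the same physiology, held 36 tested genes, of which 9 were higher and 17 lower in donors than in acceptors (25% and 47.2%, beside 29.5% and 33% of all genes tested). Against the control 4 were higher and 5 lower (11.1% and 13.9%, beside 10.3% and 9.34%). Flvcr2, a choline carrier also linked to heme, held 1.89 to 22.5 CPM in donors (median 7.19), against 0 to 0.745 in acceptors (median 0.0750). Its acceptor levels rest on few reads, so no size of the difference is given. Slco3a1, an organic anion transporter, held 72.7 to 179 CPM in donors (median 90.7), against 8.52 to 28.5 in acceptors (median 16), a log2 difference of 2.73 ± 0.18. Slco2b1, another organic anion transporter, had at most 0.695 CPM in donors (median 0), against 0.948 to 17.3 in acceptors (median 3.49). Ucp2, the mitochondrial uncoupling protein that carries anions, held 71.9 to 133 CPM in donors (median 106), against 192 to 354 in acceptors (median 219), a log2 difference of −1.16 ± 0.08. These genes were picked from the list for the size of their differences.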

How the data were processed

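Libraries were 3′ tag libraries read from 1 end. The deposited values are whole-number counts per gene, and the authors' notes name STAR, Partek, DESeq2 and mm10 without versions or roles, per the submitters' processing notes. A 3′ tag count does not scale with transcript length, and no source says whether counting used the strand. Genes with low counts were removed (filterByExpr), 13034 were tested with edgeR 4.0.16 (quasi-likelihood, TMM factors, 1 fit over 13 groups, R 4.3.3), and p-values were Benjamini-Hochberg adjusted over all of them with a threshold of 0.05. SE is the log2 difference divided by the square root of F. A count of 3 corresponds to 0.181 to 0.414 CPM, a floor for counting error only. Gene positions are GENCODE M21's and promoters RefSeq's. The method was tested on simulated data. The solute carriers and the lists were chosen with earlier results of these data known. Genes named are, per substrate group of at least 4, up to 4 called genes with the largest difference between donors and acceptors in each direction; the 12 largest differences from the control in each direction; the 6 most abundant genes and the most abundant of each group; and those nearest the 1 CPM minimum. Genes under 3 CPM were named only where no other filled the place, and exceptions are marked. Some genes that the rule names are not reported here. Alternatives were other scalings, no filter, DESeq2 1.42.0, fits within and blocked by library-number run, only the groups compared, and leaving out each library. Replicate numbers are accession order and pair nothing. Libraries of 1 run were compared for shared deviations: of 24 correlations between groups (−0.38 to 0.51) 14 were over 0.1, and all 3 pairs were over 0.1 in 3 of 8 comparisons.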

Additional observations from a re-analysis of the deposited data

How the results depend on the processing

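Scaling to library totals moved the counts of solute carriers between donors and acceptors to 52 lower at 0 min, 51 lower at 15 min, 17 higher and 53 lower at 30 min, 20 higher and 55 lower at 60 min and 54 lower at 150 min, and those between donors and control to 15 higher and 55 lower. All genes moved the same way with library totals. Averaged over the 6 times 2255 were higher and 6499 lower, against 3846 and 4307 with TMM factors. Against the control 739 of all genes were higher and 2623 lower, against 1348 and 1217 with TMM factors. Only the groups compared gave 8 higher and 6 lower at 300 min. Library-number run 1 alone gave 47 lower over all times, beside 2348 lower of all genes. Counts of all genes by time under these settings are not given. DESeq2 called 1 solute carrier for time in acceptors, Slc4a11, and the share of all genes it called is not given. The direction turned for Slc26a2 (−0.06 in run 1), Slc4a2 (−0.26 with library totals), Slc44a2 (−0.02 with library totals, −0.12 in run 1) and Slc48a1 (−0.03 with library totals, −0.06 in run 2). The cause was not tested.

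With each library left out in turn, donors and acceptors averaged over times differed in 48 to 54 genes higher and 70 to 76 lower. By time the counts were 23 to 28 and 19 to 25 at 0 min, 24 to 28 and 18 to 25 at 15 min, 22 to 26 and 20 to 26 at 30 min, 21 to 27 and 16 to 23 at 60 min, 23 to 26 and 21 to 26 at 150 min, and 22 to 31 and 23 to 32 at 300 min. Donors and control differed in 21 to 25 and 19 to 24, and all other counts were 0. Counts over all genes with a library left out are not given here. The lowest counts of lower genes came without donors 0 min replicate 2 (19), donors 15 min replicate 1 (18), acceptors 60 min replicate 1 (16) and, against the control, control replicate 2 (19). Of 48 named genes called between donors and control, 17 lost the call without at least 1 library, among them Slc38a2, Slc23a2, Slc45a3, Slc30a1 and Slc35e4.

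With the library-number run as a replicate block the counts were 52 higher and 75 lower over all times, 32 and 35 at 0 min, 32 and 38 at 15 min, 33 and 36 at 30 min, 34 and 35 at 60 min, 33 and 36 at 150 min, 33 and 33 at 300 min, and 31 and 34 against the control, with all others 0. Among named genes that averaged at least 1 CPM in donors and in acceptors, the block added calls against the control for Slc13a3, Slc46a3 and Slc39a8. Of all genes, the block gave 3919 higher and 4392 lower over all times, against 3846 and 4307 without it. Against the control it gave 1643 and 1490 of all genes, against 1348 and 1217 without it. Levels near 1 CPM rest on few reads.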
